A study of Homo sapiens with 3 samples.

Results

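The early response of NCI-H1650 cells to colossolactone H was read from the array of cells treated for 12 h against the array of control cells, 2 of the 3 arrays in the series. NCI-H1650 is an established human lung adenocarcinoma line, and colossolactone H is a triterpenoid first isolated from a Ganoderma fungus. Control cells (labelled Control) and cells given 40 μM of the compound for 12 h (Colo H 12h) or 24 h (Colo H 24h) each supplied 1 Affymetrix HG-U133 Plus 2.0 array, hybridised with cRNA made from 6 μg of Trizol-extracted total RNA. Cells were grown in RPMI-1640 with fetal calf serum, and 1000000 of them were plated per 10 cm dish and left to attach before treatment. The model is a single cell line at a single dose, and the labels name neither a vehicle nor the hour at which the control cells were harvested, so time in culture and exposure cannot be told apart. Of 54675 probe sets, 41097 carried the name of 1 gene, and they covered 19775 genes. A gene took the signal of its brightest such probe set, in linear MAS5 units, and counted as measured where it lay above a floor of 61.4, the 50th percentile of all values, on at least 1 of the 2 arrays, which 12173 genes did.

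With 1 array a side there was no spread between replicates and therefore no test, SE or p-value. Differences are given as log2 of the 12 h signal over the control signal, and the signal of the 24 h array is set beside them. Because both treated arrays share 1 control, the 24 h array enters a count only for genes whose 12 h signal stood apart from both other arrays. Where a gene has several probe sets, their range is given as the closest available check on a value; it is taken within the same arrays and is no replicate error. In RNA from whole cultures, fewer cells of one kind and less RNA per cell cannot be told apart.

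A cell given a toxic small molecule usually answers within hours through stress pathways, in which sensor kinases and transcription factors such as ATF4 switch on genes for amino acid supply, protein folding and redox defence. Beyond these programmes, an early response can include growth factor ligands and receptors, adhesion and matrix genes, and regulators of small GTPases, which set how an epithelial tumour cell signals to its surroundings. The genes described here are those outside 14 lists of stress, sterol, cell cycle and protein degradation genes.

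At 12 h 55 genes were 2-fold or more higher (0.452% of the measured genes) and 54 were 2-fold or more lower (0.444%), together 109 genes or 0.895%. At 1.5-fold there were 421 higher genes (3.46%) and 384 lower genes (3.15%), together 805 or 6.61%. Over all measured genes the median difference was 0.01, with 6196 genes (50.9%) higher and 5977 (49.1%) lower. The 14 stress lists held 445 of the 12173 measured genes, and 18 of the 55 higher genes and 4 of the 54 lower genes were on them. That left 37 higher and 50 lower genes outside the usual stress programmes. The larger number of lower genes off the lists follows from leaving the listed genes out, since the full counts were 55 and 54. The full counts also moved with scaling, to 62 higher and 48 lower with median centring. The higher genes off the lists were dim, with a median signal of 94.0 in the control and 207.4 at 12 h, and the lower ones off the lists had medians of 245.0 and 107.3.

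**Figure D1:**
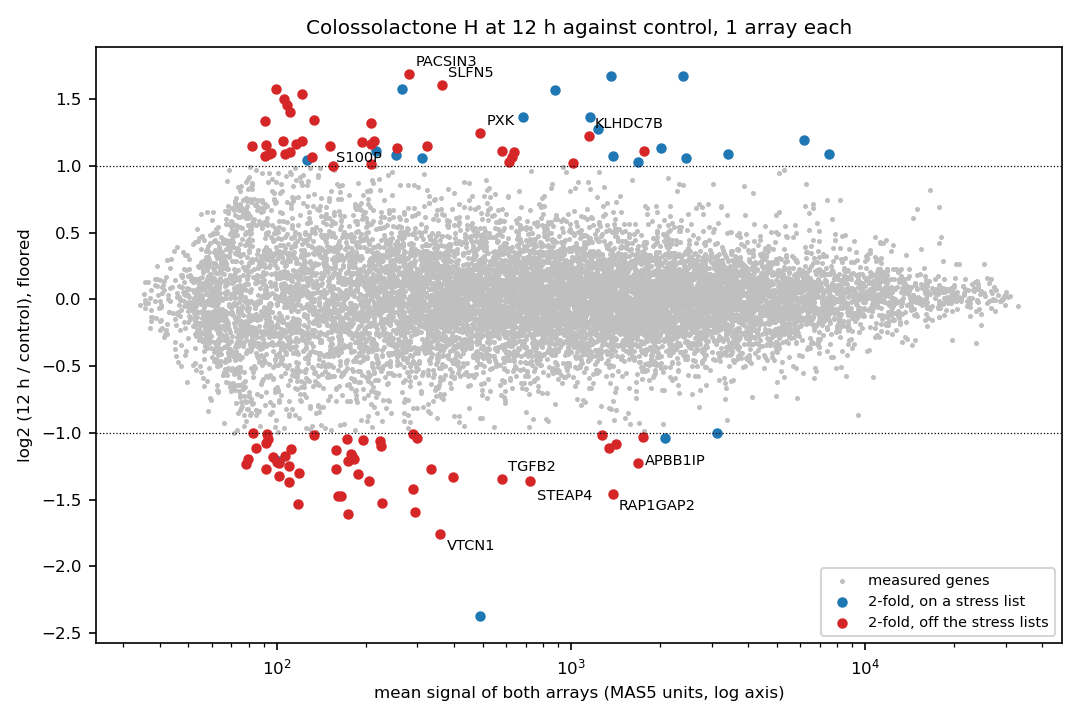
Log2 difference between the 12 h array and the control array (vertical axis, signals raised to the floor) against the mean signal of both arrays (horizontal log axis, MAS5 units) for the 12173 measured genes. Coloured points are the 109 genes past 2-fold, blue on a stress list and red off the lists; the spread of the grey points narrows towards bright genes, and most red points lie at the dim end.

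How far a value can be read depended on brightness. With the measured genes split by mean signal into 4 groups of equal size, 2.14% of the dimmest group (34.3 to 256.05) passed 2-fold, against 0.69%, 0.559% and 0.197% of the next ones, the last of which ran from 2273.6 to 33055.6. Of the 55 higher genes 10 lay at the floor on the control array, so their folds are lower bounds, and 31 rested on 1 probe set. Among the 54 lower genes 14 were at the floor at 12 h and 28 rested on 1 probe set. The 15 higher and 13 lower genes with several probe sets above that floor on both are the better supported ones, and in 13 and 11 of these all probe sets pointed the same way. Over the 5748 genes with several such probe sets, the lowest and highest probe set of a gene differed by a median of 0.30.

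Outside the stress lists, 5512 genes had at least 2 such probe sets, and in 60 higher and 75 lower genes the brightest passed 1.5-fold with every other pointing the same way. Only 6 of the 60 and 9 of the 75 reached 2-fold. Both sides were mixed in function. Among coding genes SLFN5 and PXK had the largest differences on the higher side and TGFB2 on the lower side.

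SLFN5 (Entrez gene 162394), a member of the interferon-inducible Schlafen family, had a signal of 180.2 on the control array, 547.2 on the 12 h array and 471.0 on the 24 h array, a difference of 1.60 at 12 h. Signals are given in this order throughout. A second SLFN5 probe set gave 1.45. A further 3 were above the floor at 12 h but not in the control, so their differences are lower bounds. The median over all of these probe sets was 0.56, itself such a bound. PXK (Entrez gene 54899), a kinase-like protein with a phosphoinositide-binding PX domain, stood at 290.6, 690.3 and 633.8. Its 3 probe sets ran from 0.67 to 1.45, so the direction of PXK did not rest on any single one. KLHDC7B (Entrez gene 113730), which encodes a kelch-repeat protein, went from 688.5 to 1603.4 and stood at 1657.7 at 24 h, with probe sets at 1.06 and 1.22. It was the brightest of the agreeing higher genes past 2-fold. ETV5 (Entrez gene 2119), an ETS transcription factor induced by receptor tyrosine kinase and MAP kinase signalling, had signals of 844.1, 1637.3 and 1661.5. The ETV5 difference was 0.96, with probe sets from 0.52 to 1.32.

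The remaining higher genes of this kind had a strong probe set beside weaker ones. KRI1, a nucleolar protein of ribosome assembly, was at 159.6 and 350.5, and its other probe set gave 0.27. SLC66A1, the lysosomal exporter of cationic amino acids, was at 217.2 and 417.0, with 0.34 from the other. CLCN4, an intracellular chloride and proton exchanger, was at 94.6 and 180.5, with 0.10 from the other. TDRKH, a Tudor protein of the piRNA pathway, was at 745.6 and 1369.9, a difference of 0.88 with a lowest probe set of 0.24. The weakest support was that of NOVA2, a neuronal splicing factor, where the probe set at 1.16 stood beside another at 0.03, and of ZCWPW1, a reader of histone methylation, with 0.98 beside 0.05. Among non-coding genes the transcript LINC02806 was at 119.5 and 297.7 (1.32 and 0.80 over its probe sets), and the pseudogene GOLGA2P10 was at 0.84. Sequence shared between GOLGA2P10 and the other copies of its family makes the source of that signal uncertain.

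**Figure D2:**
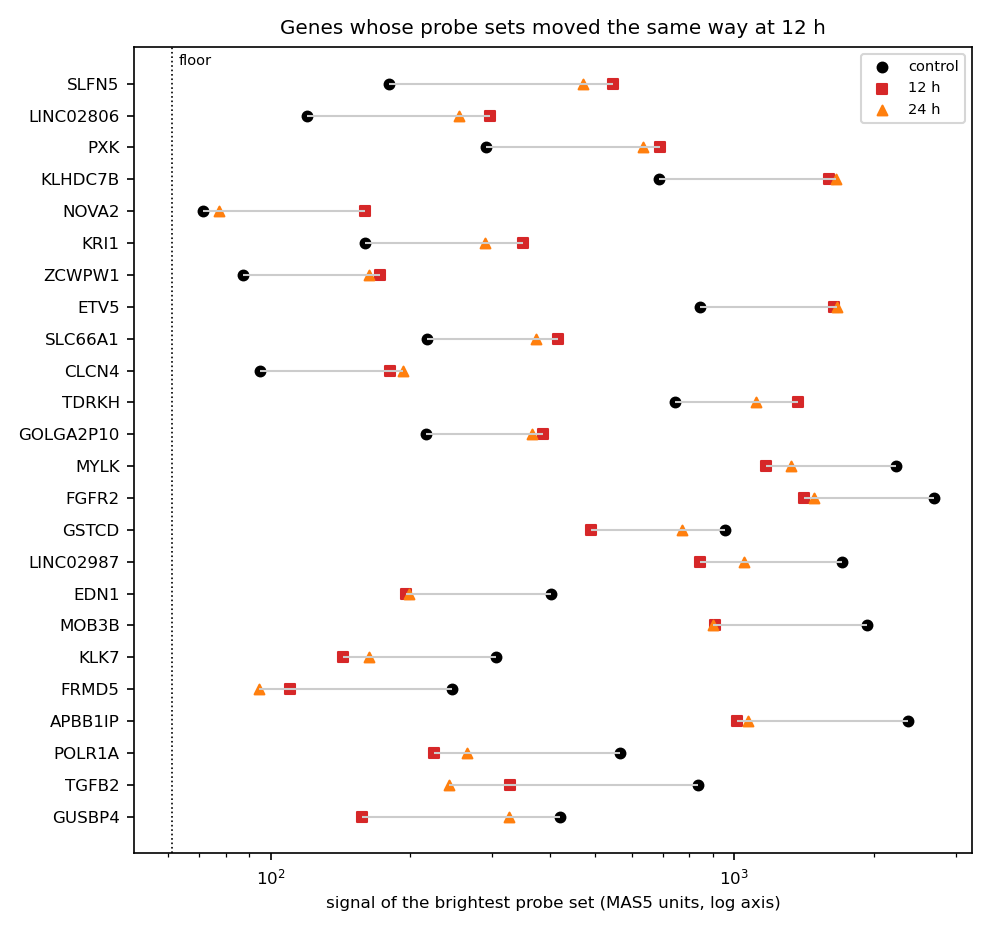
Signal (MAS5 units, log axis) on the control, 12 h and 24 h arrays, 1 array each, for the 12 higher and 12 lower genes outside the stress lists whose probe sets all pointed the same way. SLFN5 lay at 180.2, 547.2 and 471.0 and TGFB2 at 833.4, 327.9 and 242.5; there are no error bars because no group had a second array.

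Among secreted ligands, TGFB2 (Entrez gene 7042), a TGF-β cytokine that controls growth and epithelial plasticity, had a signal of 833.4 (control), 327.9 (12 h) and 242.5 (24 h). The 2 TGFB2 probe sets that exceeded the floor on both gave -1.35 and -1.25. EDN1 (Entrez gene 1906), the precursor of the vasoconstrictor and mitogen endothelin-1, was at 402.5, 196.2 and 198.6. All 3 EDN1 probe sets were lower, from -1.04 to -0.66.

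The receptor FGFR2 (Entrez gene 2263), a tyrosine kinase for fibroblast growth factors, had signals of 2693.4, 1409.6 and 1488.1. A second FGFR2 probe set, with 1992.4 in the control and 1050.4 at 12 h, gave -0.92 beside the -0.93 of the brightest, and the dimmer ones gave -0.58 and -0.11. APBB1IP (Entrez gene 54518), the adaptor RIAM that links the GTPase Rap1 to integrin activation, was at 2366.2, 1013.7 and 1072.4, with probe sets at -1.22 and -0.44. RAP1GAP2, a GTPase-activating protein for Rap1 with a single probe set, was at 2026.5, 738.8 and 873.9, a difference of -1.46. MYLK (Entrez gene 4638), the myosin light chain kinase of actomyosin contraction, was at 2231.0, 1171.3 and 1326.3, with probe sets at -0.93 and -0.53. MOB3B, a MOB-family kinase adaptor, was at 1930.4, 908.7 and 898.5, and its 4 probe sets ran from -1.17 to -0.29. FRMD5, a FERM-domain protein of cell junctions, was at 245.9, 110.2 and 94.4, with -1.16 and -0.68. KLK7, a kallikrein serine protease of epithelia, was at 306.4, 143.3 and 162.9, with -1.10 and -0.47.

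For several lower genes the probe sets disagreed in size. POLR1A, the largest subunit of RNA polymerase I, was at 565.4 and 225.1 by its brightest probe set (-1.33), but the others gave -0.07 and -0.01, so the median over all 3 was -0.07. GSTCD, a protein with a glutathione S-transferase domain, was at 952.6 and 490.4 with a 24 h signal of 769.5, and ran from -0.96 to -0.28. The pseudogene GUSBP4 was at 420.7 and 157.1 by a probe set that can bind several transcripts, and -0.29 by a transcript-specific one. The non-coding transcript LINC02987 was at 1707.6 and 844.1, with probe sets at -1.02 and -0.73.

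**Figure D3:**
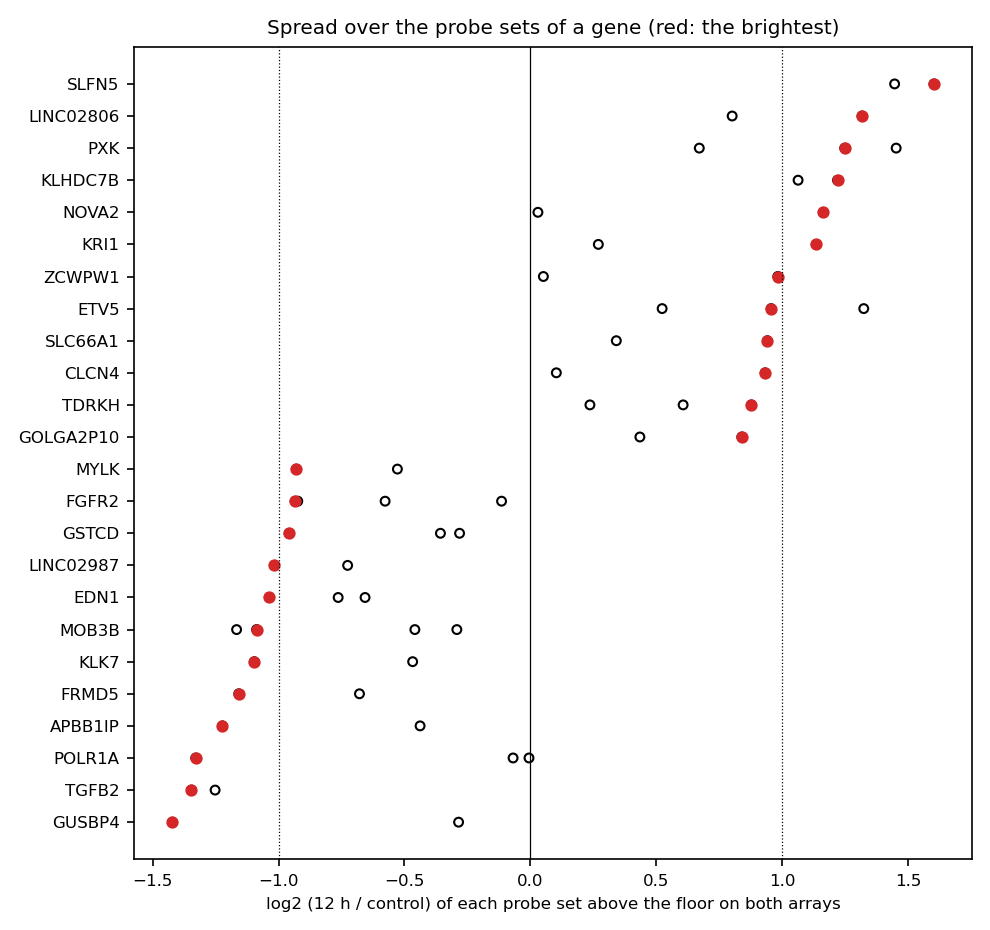
Log2 difference at 12 h of each single-gene probe set above the floor on both arrays (horizontal axis) for the genes with agreeing probe sets, with the brightest probe set in red and the others open; dotted lines mark 2-fold. TGFB2, SLFN5 and KLHDC7B have their probe sets close together, whereas POLR1A and NOVA2 each have another probe set near 0.

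Genes with only 1 probe set above the floor on both arrays had the larger folds and no such check; 20 were higher and 26 lower by 2-fold. PACSIN3 (Entrez gene 29763), an F-BAR adaptor of endocytosis, had the largest difference of any higher gene, from 133.6 to 430.0, with 383.5 at 24 h (1.69, or 3.22-fold). SEL1L3, a membrane protein related to the ubiquitin-ligase adaptor SEL1L, was at 62.4, 180.9 and 258.8, starting close to the floor. SLC43A2, an exporter of large neutral amino acids, was at 75.4, 191.3 and 133.9. HTRA3, a secreted serine protease, was at 64.0, 145.6 and 142.7, and the leukocyte surface protein SPN was at 119.3, 270.4 and 294.3. The SPN probe set can bind several transcripts, and the gene had no transcript-specific one. Another SPN probe set went from 48.5 in the control to 101.9 at 12 h, and the rest were under the floor on all arrays. S100P, a calcium-binding protein of many carcinomas, was at 94.0, 208.7 and 205.6. FIZ1, a zinc finger protein, was at 128.5 and 288.0, and the antisense transcript A1BG-AS1 at 74.0 and 168.4. All 8 had control signals at or below 133.6, so these values depend on the floor. With the floor at the 65th percentile SEL1L3, SLC43A2, A1BG-AS1 and HTRA3 were no longer measured, S100P shrank to 0.12, SPN to 0.49 and FIZ1 to 0.58, and PACSIN3 stayed past 2-fold at 1.16.

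On the lower side VTCN1 (Entrez gene 79679), the checkpoint ligand B7-H4 that restrains T cells, had the largest difference off the stress lists, with signals of 554.0, 163.5 and 249.3, a 12 h difference of -1.76 or 3.39-fold lower. STEAP4, a membrane metalloreductase, was at 1045.8, 406.8 and 417.2. COL15A1, a basement-membrane collagen, was at 338.6, 117.6 and 108.7. CACNG4, a calcium channel and AMPA receptor subunit, was at 443.6, 146.8 and 282.1, and ERN2, the epithelial paralogue of the stress sensor IRE1, was at 263.4, 86.2 and 247.2. Neither the CACNG4 nor the ERN2 value came from a transcript-specific probe set. Those of both genes were under the floor in the control and at 12 h. ZDHHC8, a palmitoyltransferase, was at 242.3, 87.3 and 168.4, and CEBPA-DT, the transcript divergent from CEBPA, at 236.9, 85.2 and 157.8. RAP1GAP2 and STEAP4 were the brightest of these 8 in the control, and no setting tried moved either by more than 0.03. With the floor at the 65th percentile CEBPA-DT shrank to -0.30, ZDHHC8 to -0.33, ERN2 to -0.45 and COL15A1 to -0.82.

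A further 10 higher and 13 lower genes passed 2-fold only as bounds. PTGIR, the prostacyclin receptor, was under the floor in the control (48.3) and at 168.1 at 12 h and 132.1 at 24 h, at least 2.74-fold higher. CYP4F2, a fatty acid hydroxylase whose near-identical paralogues may share its probe set, was at 16.1, 182.7 and 189.6, at least 2.98-fold higher. H3C8, a replication-type histone H3 gene from a family of close copies, was at 37.9, 174.0 and 67.4, at least 2.83-fold higher. PIERCE2, a protein of ciliary microtubules, was at 60 and 162.2, and EFNA3, an ephrin ligand, at 27 and 155.3, at least 2.64-fold and 2.53-fold higher. On the other side MMP12, the macrophage elastase, was at 153.5 in the control and under the floor at 12 h (49.3) and 24 h (37.7), at least 2.5-fold lower. PCDHB6, a clustered protocadherin with close paralogues, was at 177.8 and 58.4, at least 2.90-fold lower. HCN2, a pacemaker channel, was at 144.3 and 12.0, EVI5L, a Rab GTPase-activating protein, at 148.4 and 35.7, and the pseudogene GTF2IP20 at 158.9 and 60.9.

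Promoter sequence was read for the same genes because genes of the stress response share a known element in their promoters, the C/EBP-ATF composite site bound by ATF4 with C/EBP proteins. The letters TGATGNAA, on either strand, were found in the windows of 5 of the 28 higher genes off the stress lists that had a RefSeq promoter entry, a share of 17.9%. Each window runs from 250 bases before an annotated start to 50 after it. Where a gene had several entries, only the first in order of chromosome position was used, which need not be its main promoter. The matches are shown in capitals, 5′ to 3′ on the strand of the gene, in a stretch upstream of the start on build GRCh38.p14, with CHAC1 of the integrated stress response list for comparison; TTGCATCA and TTTCATCA are the element read on the opposite strand.
KLHDC7B (chr22:50545688-50545815, plus strand): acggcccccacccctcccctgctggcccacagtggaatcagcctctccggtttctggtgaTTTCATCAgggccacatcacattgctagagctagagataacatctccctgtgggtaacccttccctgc
LINC02806 (chr1:148279164-148279267, plus strand): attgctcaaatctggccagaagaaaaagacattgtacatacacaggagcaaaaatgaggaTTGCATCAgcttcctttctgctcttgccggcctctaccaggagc
S100P (chr4:6693695-6693822, plus strand): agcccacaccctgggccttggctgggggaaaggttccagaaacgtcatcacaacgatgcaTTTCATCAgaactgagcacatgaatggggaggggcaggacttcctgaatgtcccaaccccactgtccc
SYTL1 (chr1:27341916-27342021, plus strand): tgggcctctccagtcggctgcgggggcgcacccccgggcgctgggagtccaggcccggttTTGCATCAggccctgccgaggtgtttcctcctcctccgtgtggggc
YARS2 (chr12:32756027-32756147, minus strand): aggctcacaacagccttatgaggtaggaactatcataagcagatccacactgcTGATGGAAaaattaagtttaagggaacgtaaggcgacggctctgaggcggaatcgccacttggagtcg
CHAC1 (chr15:40953221-40953329, plus strand): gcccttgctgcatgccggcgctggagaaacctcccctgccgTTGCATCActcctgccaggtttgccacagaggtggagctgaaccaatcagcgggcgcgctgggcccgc
The match began 151 bases before the start in KLHDC7B, 44 in LINC02806, 123 in S100P, 46 in SYTL1, 197 in YARS2 and 209 in CHAC1. KLHDC7B and S100P held the same 8 letters, and LINC02806, SYTL1 and CHAC1 held another shared form.

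Of these genes, SYTL1, a synaptotagmin-like effector of Rab27 in secretion, was at 368.4, 793.8 and 702.8 (1.11), and YARS2, the mitochondrial tyrosyl-tRNA synthetase, was at 670.9, 1359.8 and 957.3 (1.02). Both were named through their promoter match, after their values were seen. The element was present in 1 of 33 lower genes off the lists (3.03%), in 186 of 9932 measured genes (1.87%) and in 1024 of all 27305 windows (3.75%). In the integrated stress response list 8 of 45 windows held it (17.8%). At 1.5-fold, a threshold added after seeing the data, the shares off the lists were 18 of 286 higher genes (6.29%) and 10 of 263 lower genes (3.80%). The share was thus lower for the wider set, and these shares carry no test.

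The other motifs were likewise searched on both strands. The antioxidant response letters TGACNNNGC were in 2 of 28 higher and 1 of 33 lower off-list windows, against 15.4% of the windows of measured genes and 13.5% of all windows. The AP-1 site TGACTCA was in 2 of 28 and 3 of 33, against 3.25% and 5.05%. The NF-Y site CCAATCAG was in 1 of 28 and 1 of 33, against 5.19% and 4.06%. The TATA letters TATAAA were in 3 of 28 (10.7%) and 2 of 33 (6.06%), above the 5.82% of measured genes but below the 12.1% of all windows. The cAMP response site TGACGTCA (3.14% of measured genes and 1.94% of all windows), the E-box letters TCACGTGA (1.89% and 1.01%) and the E2F letters TTTCGCGC (0.946% and 0.527%) and TTTGGCGC (1.06% and 0.656%) were in none of either. The E-box CCACGTGG (1.12% and 0.897%) and a heat shock element (0.342% and 0.502%) were each in 1 lower window, and a sterol response element (0.151% and 0.168%) was in none. None of these motifs overlapped the printed composite matches. A match is a string of letters only, and a missing one says nothing of the factor. The windows of the off-list higher genes had a median GC content of 64.3%, those of the lower genes 61.3% and those of all measured genes 65.3%. The higher genes spanned a median of 12.9 kb in the genome, against 36.0 kb for the lower and 29 kb for all measured genes. Genes not recorded as protein-coding, mostly non-coding genes and pseudogenes, made up 10.8% of the higher and 18% of the lower genes, against 7.08% of all.

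A small group of genes differed at 12 h from both other arrays. Of 10874 genes off the stress lists and above the floor on all 3 arrays, 30 (0.276%) were at least 1.5-fold higher at 12 h than in the control and at 24 h, and 37 (0.340%) were at least 1.5-fold lower. Such a pattern rests on the single 12 h array and had no second array to check it. NOVA2 was at 71.4, 159.9 and 77.2, and VASH2, a tubulin carboxypeptidase, at 95.3, 179.6 and 98.4. Another VASH2 probe set was at 58.2, 138.9 and 93.7, and so stayed above its control signal at 24 h. STRN4, a subunit of the STRIPAK phosphatase complex, was at 234.6, 413.5 and 228.6, and ZNF76, a zinc finger transcription factor, at 257.1, 431.7 and 252.3. ARHGEF25, a guanine nucleotide exchange factor, was at 74.8, 129.9 and 62.2. GSTM1, a glutathione transferase with close paralogues, was at 119.0, 207.4 and 121.0 by its brightest probe set, but another was at 98.9, 57.4 and 19.8, and the median 12 h difference over both was 0.06. MAGEA1, a cancer-testis antigen, was at 89.9, 162.4 and 92.0, and LRRC23, a sperm radial-spoke protein, at 97.6, 168.9 and 99.6.

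Among the genes lowest at 12 h, ERN2 was at 263.4, 86.2 and 247.2, and TIMM8A, a chaperone of mitochondrial protein import, at 269.4, 109.0 and 220.4. PRRG2, a membrane protein with a Gla domain, was at 368.3, 188.6 and 362.2. PLA2R1, the secretory phospholipase A2 receptor, was at 180.2, 90.6 and 172.5. OFCC1, a gene first named from an orofacial cleft region, was at 123.8, 61.6 and 122.3, the 12 h value lying just above the floor. CACNG4, ZDHHC8 and GUSBP4 also belonged to this group, with 24 h signals of 282.1, 168.4 and 327.1 against 443.6, 242.3 and 420.7 in the control. For ERN2 and CACNG4, as given above, no transcript-specific probe set lay above the floor in the control or at 12 h. With the floor at the 65th percentile TIMM8A shrank to -0.49.

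**Figure D4:**
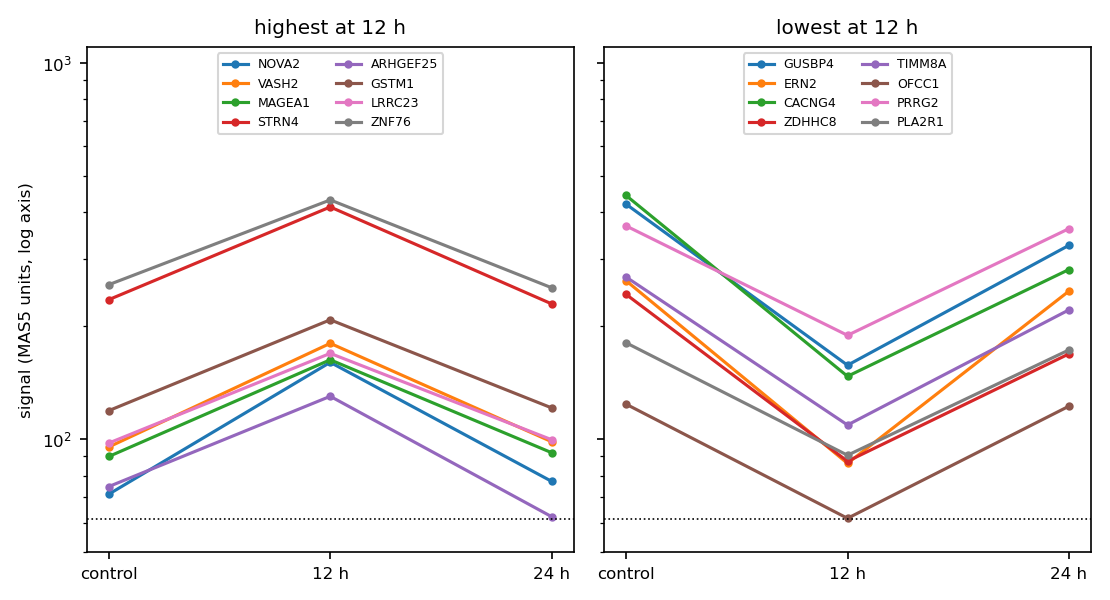
Signal (MAS5 units, log axis) on the 3 arrays for 8 genes highest at 12 h (left) and 8 lowest at 12 h (right), 1 array per point; the dotted line is the floor of 61.4. The genes were chosen for this shape, so the distance of the 12 h point from both others is fixed by the choice.

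The response was next read by gene families, taken as a whole with every measured member: 47 lists covering 2733 measured genes. Family medians lay between -0.17 and 0.11, beside 0.01 for all measured genes, so no family as a whole differed by much, and the counts describe a lean rather than a change. The lists with the lowest medians were FOX, SOX and HOX factors, insulin and IGF signalling, guidance ligands and receptors, and the Wnt pathway. Those with the highest were fatty acid oxidation and peroxisome genes, and Hedgehog and ciliary transport genes.

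Among transcription factors, 30 of 42 FOX, SOX and HOX genes were lower, with the lowest family median, -0.17. HOXA2 was at 134.2 and 67.3, while HOXD8, another homeobox gene, was under the floor in the control (59.1) and at 131.3 at 12 h, at least 2.14-fold higher. SOX13 was at 142.6 and 228.4 by its brightest probe set, but another probe set gave -0.82 and the median over its probe sets was -0.07. Of the KLF and SP factors 13 of 19 were lower (median -0.12), with KLF7 at 599.8 and 386.5. KLF2, the flow-induced factor, was among the 6 higher ones, at 149.3 and 237.4. Nuclear receptors were divided, with 14 of 24 lower and a median of -0.13, or -0.04 at its nearest to 0 among the settings tried. The largest differences in this family were those of NR4A1 (-1.21, a bound) and NR1H3 (0.90), which are also on the stress lists. Next came ESR1, the oestrogen receptor, at 156.6 and 94.3. ZNF genes, the largest list, had 220 of 412 higher and a median of 0.04. ZBTB7B, a repressor known for its part in T cell choice, was at 138.0 and 279.0 (1.02).

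Of the Wnt pathway, 23 of 33 genes were lower, with a median of -0.13. The ligand WNT7B was at 359.7, 196.9 and 185.6, the receptor FZD5 at 905.7, 594.2 and 666.5, and the secreted antagonist SFRP1 at 219.7, 144.9 and 72.2. Ligand, receptor and inhibitor were thus all lower by their brightest probe sets, but FZD5 was at 0.31 with its transcript-specific probe set. The Notch list had 11 of 23 lower and a median of 0.00 (-0.12 at the lowest of the settings tried), but its largest differences were all lower: the receptor NOTCH1 was at 298.6, 169.7 and 243.8, the ligand JAG2 at 611.9, 381.9 and 404.7 and the feedback target NRARP at 130.3, 67.0 and 38.0. Among genes of insulin and IGF signalling 18 of 29 were lower, and the median of -0.16 became -0.01 when each gene took the median over its probe sets. PHLPP1, a phosphatase that removes an activating phosphate from AKT, was at 386.2, 192.0 and 219.5 by its 1 probe set. Semaphorins, ephrins and their receptors had 25 of 42 lower and a median of -0.14, with EFNB3 an exception at 210.7 and 328.1.

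G protein-coupled receptors had 39 of 51 lower and a median of -0.13. GPRC5A, a retinoic acid-induced orphan receptor abundant in lung epithelium, was at 2007.3, 1113.4 and 1057.6, and both of its probe sets were lower (-0.85 and -0.72). Of the 53 measured genes on the ion channel list 37 were lower, and 17% passed 1.5-fold, beside 6.61% of all measured genes. These shares were not matched for signal, and dim genes passed 2-fold more often than bright ones. SCNN1A, the α subunit of the epithelial sodium channel, was at 296.7, 115.6 and 153.6 (-1.36, or -0.62 with a floor at the 65th percentile). SCNN1A and CACNG4 were the 2 genes of the ion channel list past 2-fold, CACNG4 without support from a transcript-specific probe set. The pacemaker channel HCN2, given above as a bound, is not on that list. Tetraspanins had a median of 0.02, yet TSPAN1 was at 262.9 and 143.3 and TSPAN2 at 244.8 and 124.2. Of the actin cytoskeleton genes 18 of 25 were lower (median -0.11). LIMA1, which stabilises actin filaments, was the brightest of the named actin genes, at 9701.3, 6837.8 and 6684.5, and its 3 probe sets ran from -0.50 to -0.10.

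Extracellular proteases and inhibitors had 4 genes past 2-fold among 61, beside 0.895% of all measured genes. Of the 4, MMP12, KLK7 and KLK4 were lower and HTRA3 higher. All 4 lay in the dimmest of the 4 signal groups, where 2.14% of genes passed 2-fold, and MMP12 and KLK4 passed only as bounds. KLK4, a kallikrein, was at 139.5 in the control and under the floor at 12 h (54.9). The median of this list was -0.07 with 36 lower members, and 0.00 with transcript-specific probe sets. In glycan synthesis FUT9, a fucosyltransferase, was at 566.9, 294.1 and 332.3 and MGAT3, which adds bisecting N-acetylglucosamine, at 129.1 and 69.1, while ST8SIA1, the GD3 ganglioside synthase, was at 66.9 and 125.2. The list of mucins and glycosyltransferases as a whole had a median of -0.01. Among S100 proteins S100A8, an inflammatory calcium-binding protein, was at 4522.3 and 3177.1 and S100A14 at 2880.5 and 4089.2. The transcript-specific probe set of S100A8 gave -0.01, so its lower value rests on 1 of 2 probe sets.

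On the higher side, 36 of 52 genes of fatty acid oxidation and peroxisomes were higher, with the highest family median, 0.11. PDK2, a kinase that inhibits pyruvate dehydrogenase, was at 146.7, 234.6 and 155.0, EHHADH, the peroxisomal bifunctional enzyme, at 174.8, 275.6 and 247.0 and PEX11G, a peroxisome division factor, at 119.2, 181.8 and 172.1. Of the Hedgehog and ciliary transport genes 23 of 28 were higher (median 0.10), led by the intraflagellar transport subunits IFT46 at 198.8, 359.7 and 291.8, IFT74 at 306.9 and 450.6 and IFT27 at 547.0 and 790.9, though IFT27 had another probe set at -0.27 and a median over its probe sets of -0.12. Vesicle coat, SNARE and tethering genes had 61 of 91 higher (median 0.07); STX5, the Golgi syntaxin, was at 118.2, 213.8 and 139.5. The V-type proton pump, which acidifies lysosomes, had 13 of 17 subunits higher (median 0.07), all by less than 1.5-fold. Glycerolipid and droplet genes had 22 of 32 higher (median 0.08), among them GPAT3, the first enzyme of triglyceride synthesis, at 1399.1, 1900.8 and 2342.0. For scale, the integrated stress response list had 24 of 57 members (42.1%) past 1.5-fold.

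**Figure D5:**
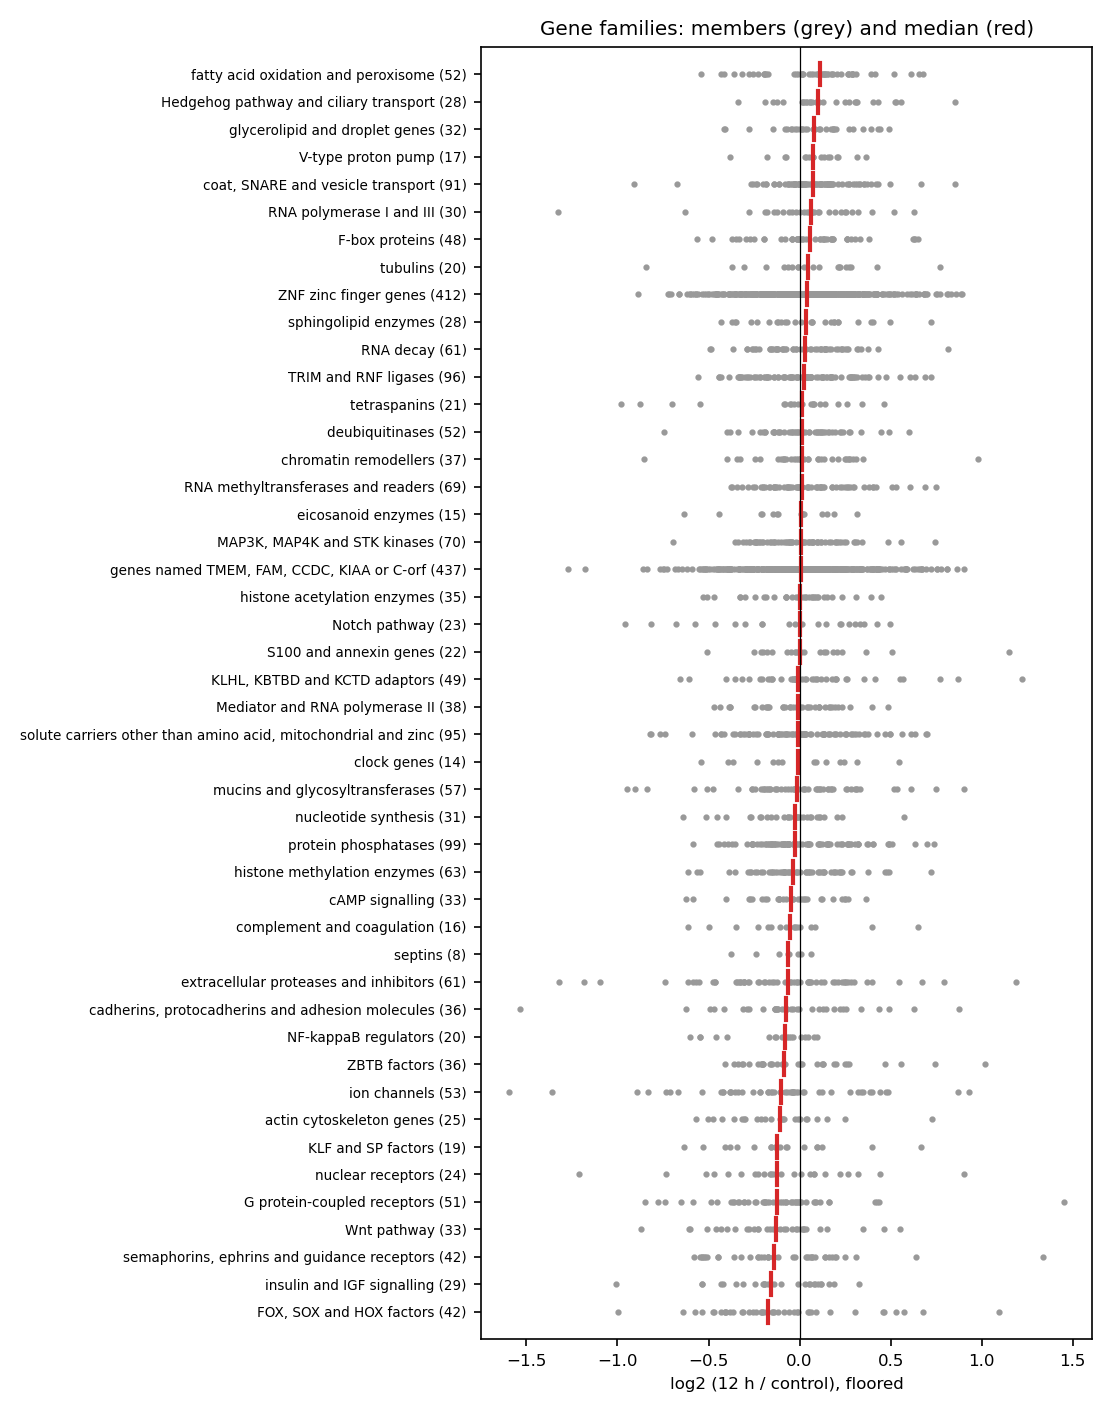
Log2 difference at 12 h of every measured member (grey points) and the family median (red bars) for the gene families reported, with the number of measured members in brackets. Medians run from -0.17 for FOX, SOX and HOX factors to 0.11 for fatty acid oxidation and peroxisome genes, and each family has members on both sides of 0.

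Some named family members were dim enough to depend on the floor: at the 65th percentile STX5 was at 0.15, SFRP1 at -0.19, PDK2 at 0.29, KLF2 at 0.30, TSPAN2 at -0.35, TSPAN1 at -0.45 and ZBTB7B at 0.54.

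Several lists did not lean, and 20 of the 47 family medians, from -0.07 to 0.05, changed sign under at least 1 of the settings tried. Mediator and RNA polymerase II subunits had 19 of 38 higher and a median of -0.01, with none past 1.5-fold. None of 35 histone acetylation enzymes passed 1.5-fold either (median 0.00); with 6.61% of all measured genes past 1.5-fold, counts of 0 in lists of this size are near the background. Chromatin remodellers had a median of 0.01, although SMARCD3, a BAF complex subunit, was at 94.2 and 185.9. RNA decay factors (33 of 61 higher), deubiquitinases (27 of 52) and clock genes (7 of 14) were likewise split. TUBE1, ε-tubulin of the centriole, was at 1081.8 and 1848.5 by 1 probe set within a tubulin list whose median was 0.05.

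Most epithelial markers were bright, with EPCAM at 13032.6 and 13754.3 and CDH1 at 20420.7 and 20218.4. EPCAM was the only measured one that was higher. KRT19 had the largest difference, at 1702.8 and 1171.3 (-0.54), and the median over the measured epithelial and lung markers was -0.13. Of 11 epithelial and lung markers 9 were measured, with a summed signal of 77307.1 in the control and 73466.1 at 12 h; the lung lineage markers NKX2-1 and NAPSA were under the floor on both arrays. The leukocyte markers PTPRC, CD3E and CD14 were under the floor on both. The 3 of 6 leukocyte and red cell markers that were measured summed to 315.8 in the control and 308.3 at 12 h. Most of this came from CSF1R, at 198.4 and 186.3. The others were ITGAM, at 73.7 and 31.4, and the red cell gene HBB, at 43.7 and 90.6, values that stand beside that of SPN. Of 10 fibroblast and endothelial markers 5 were measured, with COL1A2, PDGFRB, DCN, VWF and CDH5 under the floor. Those measured were COL3A1 (876.9 and 650.4), COL1A1 (729.8 and 689.2), FAP (470.9 and 426.2), PECAM1 (137.1 and 98.3) and TEK (111.8 and 92.9). All 5 measured ones were lower and summed to 2326.5 in the control and 1957.0 at 12 h, beside the lower value of COL15A1. The ratio of the 3′ to the 5′ probe set, a sign of RNA integrity, was 4.95 in the control and 5.38 at 12 h for ACTB and 1.21 and 1.25 for GAPDH. On the 24 h array, whose signals are set beside the others, it was 6.55 for ACTB, the highest of the 3 arrays, and 1.24 for GAPDH. The part of these differences in the results was not tested.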

How the data were processed

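Total RNA of 3 cultures was measured on 3 arrays, 1 per group. The deposited values were signal intensity on a linear scale from MAS5, per the submitters' processing notes; the sources used here give no version or settings. Median signals were 61.7 (control), 60.6 (12 h) and 61.8 (24 h), the mean after trimming 2% at each end was 500 on every array, and no further scaling was applied. The number of arrays limits precision.

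The platform annotation named 1 gene for 41097 probe sets, several for 1801 and none for 11777; 41043 of the first matched RefSeq gene records. Only probe sets of 1 gene were used. Signals under 61.4 were raised to that floor before log2. A gene took its brightest probe set over the 3 arrays and was measured if above the floor on either array compared. Calls were made at 2-fold and 1.5-fold without a test.

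Genes were named by a rule: outside the stress lists, up to 12 each way with several agreeing probe sets, 8 with 1 probe set, 5 given as bounds, 8 each way that stood apart at 12 h from both other arrays, and the 3 largest differences of each family. The lists, the rule and the comparison were chosen with earlier results of these data known, and support nothing independently.

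Of the 47 family lists, 1 is not reported here. Promoter windows came from RefSeq on GRCh38.p14, with a single window per gene, the first by position. The procedure was tested on simulated data. The 10 alternatives covered scaling, floor, probe set choice and the definition of measured. Python 3.11.15, pandas 2.3.3 and numpy 2.4.6 were used, with limma 3.58.1 in R 4.3.3 for cyclic loess.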

Additional observations from a re-analysis of the deposited data

Results flagged for a closer look

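Probe sets that the annotation pairs with no gene entered none of the comparisons above. Leaving out the array's control probe sets, there were 11721 of these, of which 4143 were measured, and 19 were 2-fold higher and 24 2-fold lower at 12 h, together 1.04%, beside 0.895% of named genes. With signal above the floor on both arrays, 16 were higher, by 1.01 to 1.66 on the log2 scale, and 14 were lower, from -1.04 to -1.43. What transcripts they measure was not analysed here. Among the 1801 probe sets of several genes, 1129 were measured, of which 5 were higher and 4 lower (0.797%).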

How the results depend on the processing

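No paired analysis was possible because each group held 1 array. The floor moved the counts most. At 2-fold, 55 genes were higher and 54 lower; with the floor at the 25th percentile 722 and 818 were, at the 65th percentile 26 and 18, and with no floor and a pseudocount of 1 159 and 176. At 1.5-fold, 421 and 384 became 1750 and 1875 with the floor at the 25th percentile and 206 and 174 at the 65th. The other alternatives left these counts within 1.5 times. Of the 55 and 54 genes, 43 and 42 were also called with the median over the probe sets, 34 and 39 with transcript-specific probe sets. Median centring moved the median of all genes to 0.03 and gave 62 higher and 48 lower genes. Of the values of named genes under the alternatives, 1627 stayed within the median SD over the probe sets of a gene, 0.179, 144 moved further and 1 past 2-fold turned. The signs of 11 named genes changed under some choice of probe set, C21orf58 being the one past 2-fold: it was at -1.27 and at 0.52 with transcript-specific probe sets; the cause was not tested. The medians of 5 families moved by more than 0.1 under some choice: Notch pathway, insulin and IGF signalling, septins, sphingolipid enzymes and tubulins. Without replicate arrays no alternative measures the spread between cultures.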
